A study of Mus musculus with 8 samples.

Results

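The genes described here are 10 genes of the fast-fibre sarcomere and its calcium handling: the fast myosin heavy chains *Myh1*, *Myh2* and *Myh4*, the fast troponins *Tnni2*, *Tnnt3* and *Tnnc2*, the fast regulatory light chain *Mylpf*, the fast myosin-binding protein *Mybpc2*, the fast alpha-actinin *Actn3* and the calcium buffer *Pvalb*. They were chosen by name, as the rows of the array table whose gene symbol equals one of these names. All 10 of 10 were found, each as a single row among 22206 probe sets, and no filter on low values was applied. A probe set is a group of short probes for 1 gene, and its value is a log2 signal, so a difference of 1 is a doubling. Levels of different probe sets are not comparable with each other and are not compared. Only their place in the range of an array is given, where it limits a result.

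The study asked how loss of MYTHO, a protein of the autophagy pathway, affects skeletal muscle. Gastrocnemius (GAS) of male C57/Bl6j mice was sampled 3 weeks after an intramuscular injection of adeno-associated virus (AAV). One group of 4 muscles received a virus with a short hairpin RNA against MYTHO (AAV sh-RNA MYTHO, here MYTHO-KD), and the other group of 4 received a virus with a scrambled hairpin (AAV sh-RNA scrmb). The labels give an age of 14 weeks, the mice were otherwise wild type, and both groups had the same AAV backbone, injection and tissue. By the study's methods the scrambled virus went into the contralateral leg, and each column heading holds a number that occurs once in each group. These numbers were taken as those of 4 animals, which no label states. The animals are called A, B, C and D, so that scrmb A and MYTHO A are read as the legs of 1 mouse. The U6 promoter that drives such hairpins is not restricted to muscle fibres, and a piece of whole GAS holds fibres of several types together with vessels, nerve, connective tissue and blood. In such bulk RNA, fewer fibres of a type and less RNA per fibre cannot be told apart.

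Skeletal muscle fibres differ in the isoforms of nearly every sarcomere protein. Slow fibres carry the myosin heavy chain of *Myh7*, and mouse fast fibres carry 2A (*Myh2*), 2X (*Myh1*) or 2B (*Myh4*) myosin, of which 2A fibres are the more oxidative and 2B fibres the fastest and most glycolytic. Mouse GAS is largely fast, with a deep part that is richer in 2A and slow fibres. Troponin C, I and T form the calcium switch on the thin filament, regulatory light chain and myosin-binding protein C sit on the thick filament, alpha-actinin anchors actin at the Z-disc, and parvalbumin buffers calcium in fast fibres.

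The arrays had 2 features that bear on these genes. First, the log2 signals have a maximum of 19.93, and a probe set at that value is called saturated, which leaves only a lower bound. *Myh4* was 1 of 18 probe sets that reached the maximum on every array, and *Myh2* and *Actn3* were among 3 that reached it on a single array. Second, the arrays differed strongly in slow-fibre genes, in a way that followed the groups in part. The mean log2 signal of 12 slow sarcomere genes was 13.21, 11.76, 11.83 and 11.45 in scrmb A, B, C and D, and 14.09, 13.90, 14.10 and 11.61 in MYTHO A, B, C and D. The array scrmb A thus lay above the other scrmb arrays, and MYTHO D lay with the scrmb arrays. The targeted transcript, listed under *D230025D16Rik*, went with its labels in every animal: its log2 signal was 11.35, 11.31, 10.78 and 11.05 in scrmb A to D and 8.16, 8.20, 8.80 and 8.08 in MYTHO A to D, a limma log2 fold change of -2.81 (adjusted p = 0.00044). The 10 fast genes that mark the tissue as fast muscle all had signal, the lowest value on any array being 16.06, which does not rank fibre types because slow genes had signal as well.

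The fast myosin heavy chains are neighbours in the genome, in a cluster of 6 skeletal myosin heavy chain genes that spans 293 kb of chromosome 11 (mm10, chr11:67078273-67371587) in the order *Myh3*, *Myh2*, *Myh1*, *Myh4*, *Myh8*, *Myh13*. The other fast genes lie elsewhere: *Tnni2* (chr7:142441816-142444410) and *Tnnt3* (chr7:142498771-142516213) are close to each other on chromosome 7, which also holds *Mylpf* (chr7:127208848-127214288) and *Mybpc2* (chr7:44501699-44524715), and *Tnnc2*, *Actn3* and *Pvalb* are on chromosomes 2, 19 and 15. The 250 bases before the annotated start of the 3 adult fast genes are shown because these are the heavy chains by which fast fibre types are told apart and their upstream sequences share a stretch. They are RefSeq sequences of GRCm38.p6 (the assembly of mm10), all on the plus strand, and capitals mark the 20-base run that all 3 have in common.

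*Myh2*, 2A myosin, chr11:67170777-67171026: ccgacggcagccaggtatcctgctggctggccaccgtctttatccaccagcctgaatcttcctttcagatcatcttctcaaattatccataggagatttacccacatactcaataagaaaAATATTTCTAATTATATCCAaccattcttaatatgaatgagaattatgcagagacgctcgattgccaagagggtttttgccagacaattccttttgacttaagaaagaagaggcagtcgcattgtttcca
*Myh1*, 2X myosin, chr11:67199852-67200101: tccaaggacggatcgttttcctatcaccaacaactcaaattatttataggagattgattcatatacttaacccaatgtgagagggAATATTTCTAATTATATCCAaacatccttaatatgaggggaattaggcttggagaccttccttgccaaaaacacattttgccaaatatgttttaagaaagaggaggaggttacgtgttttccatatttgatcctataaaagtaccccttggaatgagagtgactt
*Myh4*, 2B myosin, chr11:67237562-67237811: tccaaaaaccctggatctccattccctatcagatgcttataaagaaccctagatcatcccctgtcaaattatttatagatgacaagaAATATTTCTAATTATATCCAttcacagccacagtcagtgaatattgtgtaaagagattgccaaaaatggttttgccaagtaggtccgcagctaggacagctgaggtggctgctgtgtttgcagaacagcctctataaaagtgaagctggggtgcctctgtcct

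The shared run begins 130 bases before the start of *Myh2*, 165 bases before that of *Myh1* and 163 bases before that of *Myh4*. Over windows of 300 bases, from 250 before to 50 after the start, these were the only 3 of 32851 windows that held it on either strand, a share of 0.00913%. The TATA motif TATAAA, searched on both strands, was present in the windows of the same 3 genes, against 13.6% of all windows. Its match nearest the end of the window began 32 bases before the start of *Myh1*, 31 bases before the start of *Myh4* and 10 bases after the annotated start of *Myh2*. In all, RefSeq windows were matched for 7 of the 10 genes, with 8 windows because *Pvalb* has 2 starts. The E-box CANNTG, the motif of MyoD-type factors, was in windows of *Tnnc2*, *Mybpc2*, *Mylpf*, *Myh4* and *Pvalb*, and in 72.3% of all windows. A match is a run of letters and not a measured binding site.

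The 3 weeks of MYTHO-KD were compared with scrmb in 1 limma fit over all probe sets, with p-values adjusted by the Benjamini-Hochberg method over the whole table. None of the 9 genes that could be measured had an adjusted p under 0.05, against 0.027% of all probe sets (6 of 22206). At an unadjusted p under 0.05, 1 of the 9 was higher in MYTHO-KD and 0 were lower, against 4.81% and 7.58% of all probe sets in these directions. The 1 gene was *Myh1*. Of the 9 genes, 3 had a positive log2 fold change, 5 a negative one and 1 a value of 0, with a median of -0.015 beside -0.005 for all probe sets. In none of the 9 were the groups free of overlap, against 6.46% of all probe sets.

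**Figure D1:**
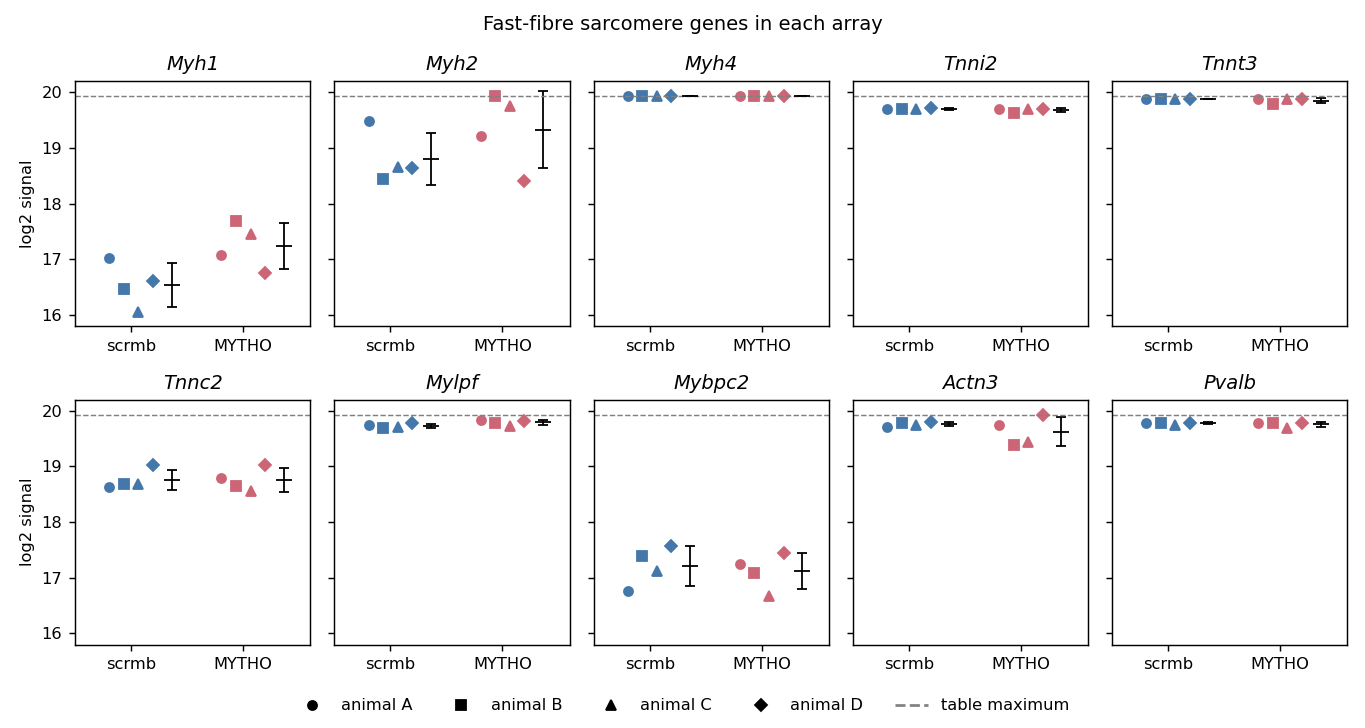
Log2 signal (vertical axis, the same for every panel) of the 10 fast-fibre genes in 4 scrmb (blue) and 4 MYTHO (red) arrays, with 1 symbol per animal. Black bars are mean ± SD and the dashed line is the table maximum of 19.93. *Myh1* and *Myh2* spread over more than 1 log2 unit, *Myh4* sat at the maximum throughout, and *Tnni2*, *Tnnt3*, *Mylpf* and *Pvalb* lay in a narrow band just under it.

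*Myh1*, which encodes the 2X heavy chain, had log2 signals of 17.02, 16.47, 16.06 and 16.61 in scrmb A to D and of 17.07, 17.68, 17.45 and 16.75 in MYTHO A to D. The MYTHO leg was the higher leg in 4 of 4 animals, by 1.21 and 1.39 in B and C and by only 0.05 and 0.14 in A and D, and the groups overlapped because scrmb A lay above MYTHO D. Group means of 16.54 ± 0.40 and 17.24 ± 0.41 (SD, n = 4 each) gave a log2 fold change of 0.70 (standard error 0.25, 95% interval 0.14 to 1.25), or 1.62-fold (limma, unadjusted p = 0.0178, adjusted p = 0.295). Without scrmb A and MYTHO D it was 1.02 (limma, adjusted p = 0.206), a description only, since these arrays were picked after the data were seen and by slow genes that went with *Myh1* over the arrays. The unadjusted call was lost without scrmb C (log2 fold change 0.54, limma, unadjusted p = 0.0600) and without MYTHO B (0.55, limma, unadjusted p = 0.0589).

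*Myh2*, which encodes the 2A heavy chain, had log2 signals of 19.49, 18.44, 18.65 and 18.64 in scrmb A to D and of 19.21, 19.93, 19.76 and 18.41 in MYTHO A to D. The value of MYTHO B is the table maximum. The MYTHO leg was higher in B and C, by 1.49 (a lower bound) and 1.11, and lower in A and D, by -0.28 and -0.23, so the direction was split 2 against 2. Group means of 18.81 ± 0.47 and 19.33 ± 0.68 (SD, n = 4 each) gave a log2 fold change of at least 0.52, standard error 0.33 (limma, unadjusted p = 0.141, adjusted p = 0.564). Leaving out scrmb A alone gave at least 0.75 (limma, unadjusted p = 0.0418), and leaving out MYTHO D alone gave at least 0.83 (limma, unadjusted p = 0.0143). In the other direction, it was 0.32 without MYTHO B (limma, unadjusted p = 0.363) and at least 0.38 without MYTHO C (limma, unadjusted p = 0.314). The size of the difference in *Myh2* thus depended on single arrays of both kinds. Without scrmb A and MYTHO D together, picked after the data were seen, it was at least 1.06 (limma, adjusted p = 0.184), again a description only.

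*Myh4*, which encodes the 2B heavy chain of the fastest fibres, was at 19.93 on all 8 arrays. No difference between groups or animals could be measured, in either direction. The neighbouring *Myh8*, the perinatal heavy chain, was likewise at 19.93 on all 8 arrays, in adult muscle where its transcript is usually scarce. The coding sequences of these myosins are alike, probe sequences were not used here, and cross-hybridisation between *Myh8*, *Myh4*, *Myh1* and *Myh2* was not tested. The other developmental and minor heavy chains were not saturated: the embryonic *Myh3* was between 5.37 and 6.09 in scrmb and between 5.56 and 7.59 in MYTHO-KD (log2 fold change 0.71, limma, unadjusted p = 0.0736), and *Myh13*, of extraocular muscle, was between 5.68 and 5.86 and between 5.72 and 6.45 (0.32, limma, unadjusted p = 0.136). None of the 4 measurable genes of that list passed an unadjusted p of 0.05, and 1 did with animal as a block.

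The fast troponins, light chain and parvalbumin had log2 fold changes close to 0, but most of them lay where the arrays left little room for a change to be seen. *Tnni2*, the fast inhibitory troponin, had a log2 signal of 19.69 on 6 of 8 arrays, with 19.72 in scrmb D and 19.62 in MYTHO B. *Tnnt3*, the fast troponin that holds the complex on tropomyosin, had 19.87 on 7 of 8 arrays and 19.79 in MYTHO B. *Pvalb* had 19.78 on 6 of 8 arrays, 19.75 in scrmb C and 19.69 in MYTHO C. In each of these genes the arrays that departed from the common value were 1 or 2, and the log2 fold changes were -0.025, -0.02 and -0.015, all of which turned positive under median centring of the arrays.

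*Mylpf*, the light chain that stiffens the neck of the fast myosin head, had log2 signals of 19.74, 19.69, 19.70 and 19.78 in scrmb A to D and of 19.83, 19.77, 19.73 and 19.82 in MYTHO A to D. It was higher in the MYTHO leg of 4 of 4 animals, by 0.03 to 0.09, and the log2 fold change was 0.06, standard error 0.15 (limma, unadjusted p = 0.705). Under quantile normalization of the arrays the value was -0.0069, so no direction is given.

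Such repeated values were a feature of probe sets close to the maximum. Of the 20 probe sets with a mean log2 signal of 19 or more and no saturated array, 6 (30.0%) had 1 value on at least 5 of the 8 arrays, against 2 of 371 (0.539%) with a mean from 15 to 19 and 1 of 3018 (0.0331%) with a mean from 10 to 15. Their median within-group SD was 0.0811, against 0.202 and 0.251. The signals of *Tnni2*, *Tnnt3*, *Mylpf* and *Pvalb* are thus in a range where the arrays hardly spread, and a log2 fold change near 0 there does not show that the transcript was at the same level in both groups. Their standard errors of about 0.15 come from the variance that limma shares across all probe sets, and not from their own spread.

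*Tnnc2*, the fast calcium-binding troponin, lay further from the maximum. Its log2 signals were 18.63, 18.68, 18.68 and 19.02 in scrmb A to D and 18.79, 18.64, 18.55 and 19.03 in MYTHO A to D, and the highest array of each group came from animal D. Group means of 18.75 ± 0.18 and 18.75 ± 0.21 (SD, n = 4 each) gave a log2 fold change of 0.00 with a 95% interval of -0.40 to 0.40.

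*Mybpc2*, the fast form of myosin-binding protein C that tunes cross-bridge cycling, had log2 signals of 16.76, 17.39, 17.12 and 17.57 in scrmb A to D and of 17.25, 17.09, 16.68 and 17.45 in MYTHO A to D. It was lower in the MYTHO leg of 3 of 4 animals and higher by 0.49 in animal A, whose scrmb array was the lowest of its group. Group means of 17.21 ± 0.35 and 17.12 ± 0.33 (SD, n = 4 each) gave a log2 fold change of -0.09, with a 95% interval from -0.59 to 0.41 (limma, unadjusted p = 0.694). The sign turned, to 0.0275 without scrmb D and to 0.053 without MYTHO C.

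*Actn3*, the alpha-actinin of fast glycolytic fibres, had log2 signals of 19.71, 19.77, 19.74 and 19.80 in scrmb A to D and of 19.75, 19.38, 19.44 and 19.93 in MYTHO A to D. The scrmb arrays lay within 0.1 of each other, MYTHO B and MYTHO C lay below all of them, by -0.39 and -0.30 against the other leg, and MYTHO D was at the maximum. The log2 fold change was -0.13 or higher, since the saturated array is in the MYTHO group (limma, unadjusted p = 0.482, adjusted p = 0.821). It moved to -0.048 without MYTHO B, -0.068 without MYTHO C and -0.23 without MYTHO D, where no array was saturated, and to -0.28 under quantile normalization.

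**Figure D2:**
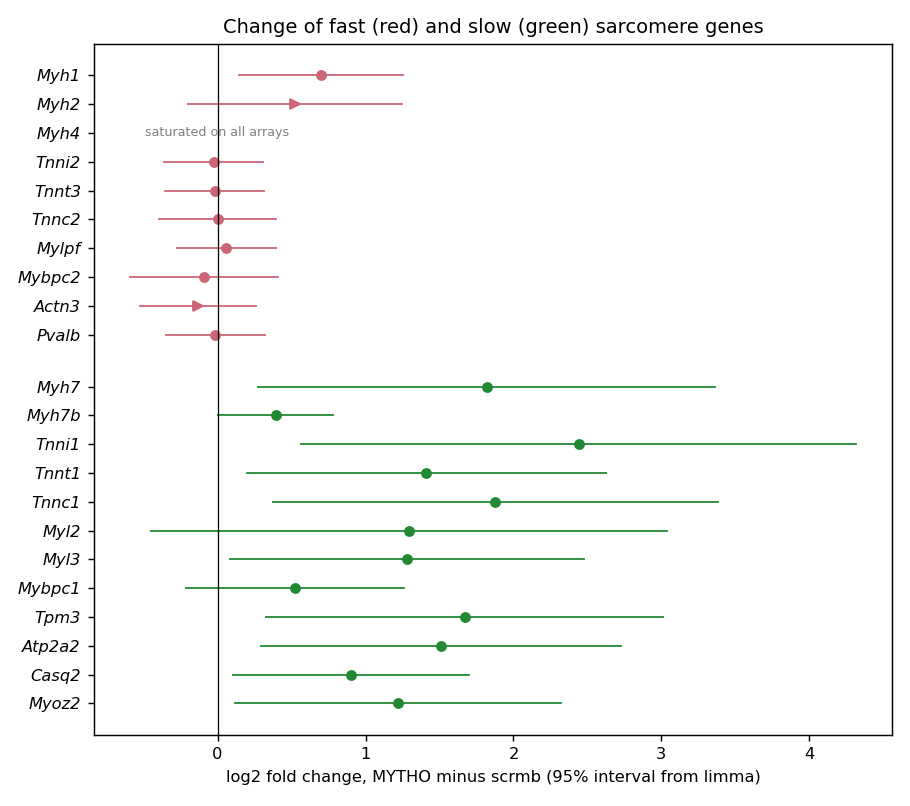
Log2 fold change of MYTHO minus scrmb (horizontal axis) with its 95% interval from limma for 9 fast-fibre genes (red) and 12 slow sarcomere genes (green), 4 arrays per group. *Myh4*, saturated on all 8 arrays, has no value or interval. Arrowheads mark *Myh2* and *Actn3*, each with 1 saturated array, whose values are lower bounds. Among the fast genes only the interval of *Myh1* lies above 0, and all 12 slow genes have positive values.

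On the same arrays the median over the slow genes was 1.35 (log2 fold change, range 0.39 to 2.44), beside -0.015 for the fast genes. In the list of 12 slow sarcomere genes, 12 of 12 had a positive log2 fold change, 10 had an unadjusted p under 0.05, against 4.81% of all probe sets in that direction, and 0 had an adjusted p under 0.05. The unadjusted count depended on single arrays and on the variance model: it was 0 without MYTHO C, 1 without MYTHO A and 1 with a trended, robust variance. The list was drawn up with earlier results of these data known and is a description. For *Myh7*, the slow heavy chain, the log2 signals were 13.75, 11.53, 11.89 and 11.68 in scrmb A to D and 15.13, 14.68, 14.74 and 11.58 in MYTHO A to D, with a log2 fold change of 1.82 (limma, unadjusted p = 0.0246, adjusted p = 0.326). The slow troponins *Tnni1*, *Tnnc1* and *Tnnt1* had log2 fold changes of 2.44, 1.88 and 1.41, and the slow light chain *Myl2* one of 1.295 (limma, unadjusted p = 0.0151, 0.0187, 0.0264 and 0.131). With animal as a block, the limma unadjusted p was 0.0181 for *Myl2* (adjusted p = 0.293) and 0.00361 for *Myh7*. For *Tnni1*, *Tnnc1* and *Tnnt1* the limma unadjusted p with that block was 0.00109, 0.00304 and 0.00363. In the blocked fit 10 of the 12 slow genes had an unadjusted p under 0.05, against 4.94% of all probe sets in that direction. An adjusted p under 0.05 was reached by 0 of them. Other slow genes had an unadjusted p under 0.05 in the fit without a block. The slow essential light chain *Myl3* had 1.28, the slow tropomyosin *Tpm3* 1.67 and the slow calcium pump *Atp2a2* 1.51 (limma, unadjusted p = 0.0380, 0.0189 and 0.0191). The calsequestrin *Casq2* had 0.90, the Z-disc protein *Myoz2* 1.22 and the myosin *Myh7b* 0.39 (limma, unadjusted p = 0.0301, 0.0327 and 0.0482). The log2 signals of *Myh7b* were only 5.36 to 6.06, under the median signal of each array (6.39 to 6.47). *Mybpc1*, the slow myosin-binding protein, had 0.53, and *Actn2*, the alpha-actinin of all fibre types, had 0.68 (limma, unadjusted p = 0.146 and 0.0474). Without scrmb A and MYTHO D, 8 of the 12 slow genes had an adjusted p under 0.05, against 13 of 22206 probe sets, but these arrays were picked after the data were seen and by these same genes, so the gain follows from the choice.

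Each of 7 fast genes was set against its counterpart, a slow isoform in 6 pairs and *Actn2*, which all fibre types share, in the remaining pair. Within an array, the fast gene minus its counterpart shows how unequally the measured signals of a pair moved. The change of this difference from the scrmb to the MYTHO leg was negative in all 7 pairs. It was -2.47 for *Tnni2* minus *Tnni1*, -1.88 for *Tnnc2* minus *Tnnc1*, -1.43 for *Tnnt3* minus *Tnnt1*, -1.24 for *Mylpf* minus *Myl2*, -1.12 for *Myh1* minus *Myh7*, -0.81 or higher for *Actn3* minus *Actn2*, a bound because *Actn3* was saturated in MYTHO D, and -0.62 for *Mybpc2* minus *Mybpc1*. For the 3 troponin pairs it was negative in 4 of 4 animals, and for the other pairs in 3 of 4. In animal A it ran from -1.68 to 0.70, the latter for *Mybpc2* minus *Mybpc1*. In animal B it ran from -3.68 to -1.44 and in animal C from -4.03 to -1.29, whereas in animal D it ran only from -0.47 to 0.45. The measured log2 fold change of the fast gene was between -0.13 and 0.06 in all pairs but that of *Myh1*. For *Tnni2*, *Tnnt3*, *Mylpf* and *Actn3* the fast signal was close to the maximum, and the effect of the maximum on the size of these changes was not tested. Single arrays moved several of these means: *Myh1* minus *Myh7* was -0.70 without MYTHO A and -1.78 without MYTHO D, and *Mylpf* minus *Myl2* was -2.17 without MYTHO D. *Actn3* minus *Actn2* was -0.50 without MYTHO B. *Mybpc2* minus *Mybpc1* was -0.32 without scrmb D, -0.36 without MYTHO C, -0.38 without MYTHO B, -0.98 without scrmb A and -1.03 without MYTHO D. All stayed negative with any 1 array left out, and the differences themselves carry no test.

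**Figure D3:**
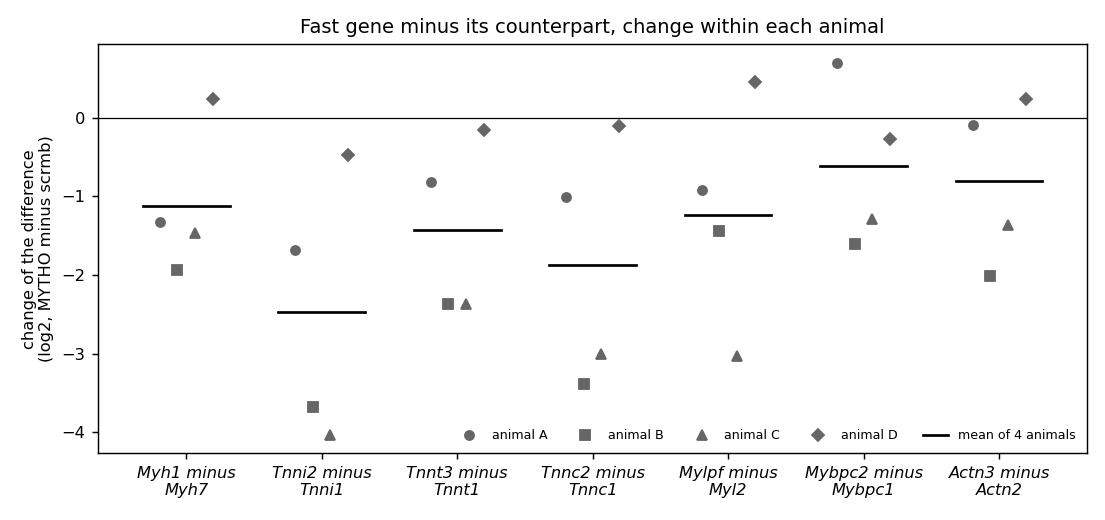
Change of the within-array difference, fast gene minus its counterpart (log2, MYTHO leg minus scrmb leg, vertical axis), for 7 pairs, with 1 symbol per animal and the mean of 4 animals as a line. All 7 means are negative, from -2.47 to -0.62, the *Actn3* mean and its animal D value are lower bounds, and animal D lies nearest to 0 or above it in most pairs.

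The fast genes differed in how they followed the slow genes over the 8 arrays. Pearson's r with the slow-gene mean was 0.831 for *Myh1* and 0.907 for *Myh2*, and -0.739 for *Actn3*, -0.694 for *Mybpc2* and -0.618 for *Tnnc2*. It was -0.505 for *Tnni2*, -0.390 for *Tnnt3*, -0.355 for *Pvalb* and 0.199 for *Mylpf*, the genes in the narrow band under the maximum. The values for *Myh2* and *Actn3* include 1 saturated array each. Measured as deviations from the group means, pooled over both groups, the first 5 values were 0.714, 0.891, -0.695, -0.766 and -0.780, with the same 5 signs. Neither group was looked at alone, and scrmb A and MYTHO D lay furthest from their groups in the slow-gene mean. The array scrmb A, high in slow genes, had the highest *Myh1* and *Myh2* and the lowest *Mybpc2* of the scrmb group, and MYTHO D, low in slow genes, had the lowest *Myh1* and *Myh2* and the highest *Mybpc2* and *Actn3* of the MYTHO group. The 3 arrays MYTHO A, B and C were within 0.21 of each other in the slow-gene mean but differed by at least 0.72 in *Myh2*, with MYTHO B saturated. Among the fast genes, r was 0.875 for *Myh1* with *Myh2*, -0.882 for *Myh2* with *Actn3* and 0.828 for *Tnnc2* with *Mybpc2*. These values describe 8 arrays, 2 from each animal, which share the animal, the normalization and the piece of muscle taken, and they carry no test.

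**Figure D4:**
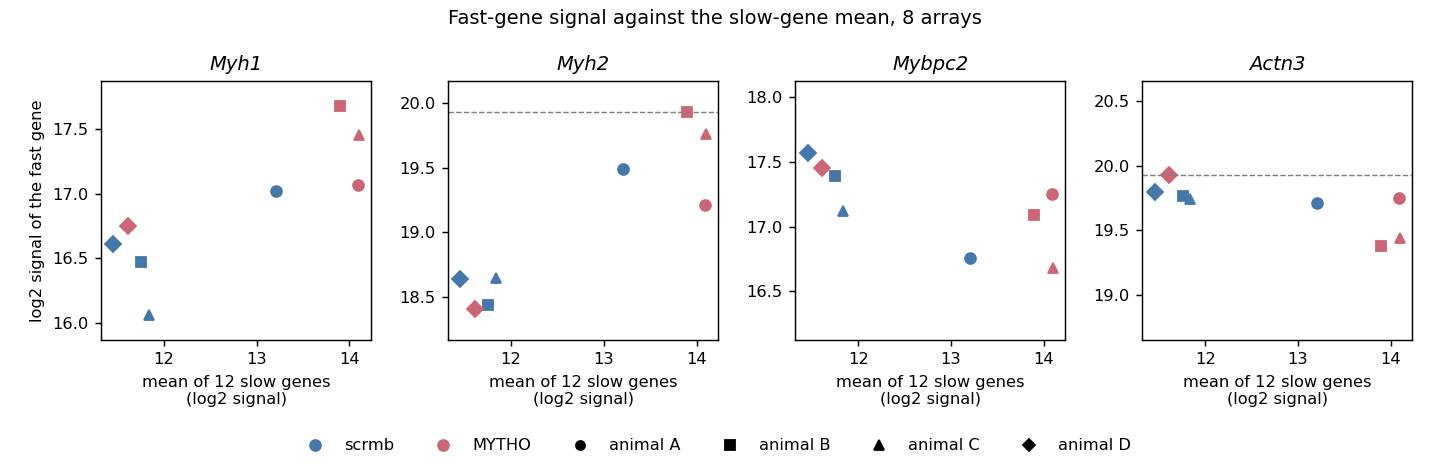
Log2 signal of *Myh1*, *Myh2*, *Mybpc2* and *Actn3* (vertical axes, each 2 log2 units tall) against the mean log2 signal of 12 slow sarcomere genes (horizontal axis) in 4 scrmb (blue) and 4 MYTHO (red) arrays, with 1 symbol per animal and the maximum of 19.93 as a dashed line where an array reached it. *Myh1* and *Myh2* go up with the slow-gene mean (r = 0.831 and 0.907), and *Mybpc2* and *Actn3* go down (r = -0.694 and -0.739).

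Other genes of fast fibres were looked at from a list of 10. Of these, *Myl1*, *Tpm1*, *Atp2a1* and *Pygm*, which encode the fast essential light chain, fast tropomyosin, the fast calcium pump and muscle glycogen phosphorylase, were saturated on all 8 arrays. Of the 6 measurable genes, 2 had positive and 4 negative log2 fold changes (median -0.14), 1 had an unadjusted p under 0.05 (in the lower direction, against 7.58% of all probe sets) and 0 an adjusted p under 0.05. The 1 gene was *Gpd1*, the cytosolic glycerol-3-phosphate dehydrogenase, with log2 signals of 13.59, 13.97, 13.77 and 14.37 in scrmb A to D and of 13.50, 13.35, 13.11 and 13.70 in MYTHO A to D. It was lower in the MYTHO leg of each animal, although the groups overlapped, with a log2 fold change of -0.51 (limma, unadjusted p = 0.0340, adjusted p = 0.358). Among 12 sarcomere genes that fast and slow fibres share, 11 were measurable, with a median log2 fold change of 0.11, and *Actn2* was the only one with an unadjusted p under 0.05, against 4.81% of all probe sets in that direction. That count was 0 under quantile normalization, array weights or a filter on dim probe sets and without any 1 of scrmb B, scrmb C, scrmb D, MYTHO A, MYTHO B or MYTHO C, and 2 under median centring, with animal as a block or without MYTHO D.

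Of 14 regulators of the fast programme, 1 was higher and 1 lower at an unadjusted p under 0.05, against 4.81% and 7.58% of all probe sets, and 0 had an adjusted p under 0.05 (median log2 fold change 0.14). *Tbx15*, a T-box factor of glycolytic fibres, had log2 signals of 13.28, 13.72, 13.19 and 13.64 in scrmb A to D and of 14.02, 14.07, 13.49 and 14.11 in MYTHO A to D (0.47, limma, unadjusted p = 0.0441). *Eya4*, a transcriptional cofactor, had 11.36, 11.84, 11.54 and 11.64 in scrmb A to D and 11.07, 10.73, 10.82 and 11.67 in MYTHO A to D (-0.52, limma, unadjusted p = 0.0395). Both were thus split from the other group in most but not all arrays, and in both the groups overlapped. The count of 2 fell to 0 without scrmb C or MYTHO A, fell to 1 under median centring or without any 1 of scrmb B, MYTHO B, MYTHO C or MYTHO D, and was 3 with animal as a block.

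The probe sets most like each fast gene were ranked by Pearson's r over the 8 arrays, for the 7 genes with no saturated array. For *Myh1* these were *Vgll2* (r = 0.989), a skeletal-muscle cofactor of TEAD factors, *Ltbp4* (r = 0.986), a binding protein of latent TGF-beta, and *Ccdc97* (r = 0.984), with log2 fold changes of 1.46, 0.75 and 0.54. For *Mybpc2* they were *Capzb* (r = 0.976), which caps actin filaments, *Fam168a* (r = 0.974) and *Sypl* (r = 0.963), and for *Tnnc2* they were *Actr3b* (r = 0.966), *Tph2* (r = 0.961) and *Ercc6* (r = 0.957). For *Mylpf* they were *Jsrp1* (r = 0.973), a protein of the junctional sarcoplasmic reticulum, *Agt* (r = 0.971) and *Mrpl46* (r = 0.953). For the genes with repeated values r rests on 1 or 2 arrays: *Tnni2* was most like *Pram1*, *Tpi1* and *Ogt*, *Tnnt3* most like *Mbd3l1*, *Hira* and *Enoph1*, and *Pvalb* most like *Zfc3h1*, *Nars2* and *Eya1*. The highest r among 22206 probe sets over 8 arrays is high in any case, and these are descriptions.

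Markers of other cells in the muscle piece varied between arrays as well. The mean log2 signal of 5 adipocyte markers ran from 5.28 to 8.91 in scrmb and from 5.63 to 10.44 in MYTHO-KD, with no marker past an unadjusted p of 0.05. The highest adipocyte mean was in MYTHO A and the lowest in scrmb D, and scrmb C had the highest of its group. That of 5 blood cell probe sets ran from 10.82 to 12.40 and from 11.27 to 13.04, and *Ptprc*, the leukocyte antigen CD45, had a log2 fold change of -0.59 (limma, unadjusted p = 0.0290), whereas the haemoglobin probe sets had positive values, such as 0.85 for *Hba-a1*. In that list 3 values were positive and 2 negative, and 1 of the 5 had an unadjusted p under 0.05, in the lower direction, against 7.58% of all probe sets. The blood cell mean was lowest in scrmb C, also the array with the lowest *Myh1*, and highest in MYTHO D. Of 5 fibroblast markers 2 had positive and 3 negative log2 fold changes, from -0.60 for *Dcn* (decorin; limma, unadjusted p = 0.00850) to 0.42 for *Col3a1*. All 5 endothelial markers had positive values, with 0.45 for *Pecam1* (limma, unadjusted p = 0.0369). Of 4 satellite cell markers 3 were positive, with 0.51 for *Cdh15* (M-cadherin; limma, unadjusted p = 0.0305). In each of these 3 lists 1 marker had an unadjusted p under 0.05, against 4.81% (higher) and 7.58% (lower) of all probe sets. *Dcn*, *Pecam1*, *Cdh5* and *Cdh15* had groups without overlap, against 6.46% of all probe sets. Fibroblast means ran from 10.78 to 10.96 and from 10.54 to 11.18, endothelial means from 9.69 to 9.88 and from 10.04 to 10.25, and satellite cell means from 5.20 to 5.43 and from 5.41 to 5.55. The mean of 4 Schwann cell markers ran from 6.06 to 7.30 in scrmb and from 6.05 to 6.83 in MYTHO-KD, the highest in scrmb C, with 0 of 4 past an unadjusted p of 0.05. Macrophage means ran from 5.93 to 6.29 and from 6.12 to 6.39, with 0 of 5 markers past an unadjusted p of 0.05. In the macrophage list the lowest p belonged to *Cd68* (0.54, limma, unadjusted p = 0.0882) and *Adgre1* (0.37, limma, unadjusted p = 0.197), and in the adipocyte list to *Lep* (0.44, limma, unadjusted p = 0.533) and *Cfd* (-0.37, limma, unadjusted p = 0.806). No marker of these lists had an adjusted p under 0.05, and the part of other cells in the values of the fast genes was not tested.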

How the data were processed

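The authors hybridised total RNA from 4 AAV sh-RNA scrmb and 4 AAV sh-RNA MYTHO GAS muscles to Clariom S Mouse arrays. The deposited log2 signals were made by the authors with the Transcriptome Analysis Console 4.0.1 at default settings (SST-RMA at gene level, annotation release 36, mm10), which normalizes all arrays together and caps the signal. The columns with the authors' group averages, fold changes, p-values and false discovery rates were not used.

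The values were used as deposited, without further normalization. Groups were compared with limma 3.58.1 in R 4.3.3 (lmFit and eBayes, 2-sided, no block, as the study states no pairing term), over 22206 probe sets with Benjamini-Hochberg adjustment. The fits were tested on simulated data. Only 8 arrays limit the precision. The intervals come from a fit without an animal term, with a variance that limma shares in part across all probe sets.

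Arrays were paired by the number in the column headings, which no label names as that of an animal. The correlation of the deviations from the group means was 0.00266, -0.00145, 0.135 and 0.0871 for animals A to D, against -0.167 to 0.104 for arrays of different animals.

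Named genes are the 10 fast genes, the slow counterparts, genes of each list with an unadjusted p under 0.05 (or the 2 with the lowest p where none had), the targeted gene and the 3 probe sets most correlated with each fast gene without saturation. *Myh8*, *Myl1*, *Tpm1*, *Atp2a1* and *Pygm* fell outside the rule and were named for their saturation after it was seen, and *Hba-a1*, *Col3a1* and *Cdh5* to show their lists, also after their values were seen. The members and lists were chosen with earlier results of these data known. One cell type marker and a motif search are not reported here. Alternatives were other normalizations, filters, variance models, animal blocks and leaving out arrays.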

Additional observations from a re-analysis of the deposited data

Results flagged for a closer look

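Within groups of 4 arrays, 13 of 35 groups examined for the fast genes, their slow counterparts, the targeted gene and the slow-gene mean held an array set far apart from the other 3. Chance alone flags about 1 group in 20, and the groups are not independent because they share arrays. Among the fast genes these were *Tnni2* in scrmb D (19.72, the others 19.69), *Tnni2* in MYTHO B (19.62, the others 19.69), *Tnnt3* in MYTHO B (19.79, the others 19.87), *Pvalb* in scrmb C (19.75, the others 19.78) and *Pvalb* in MYTHO C (19.69, the others 19.78). In these 5 cases the other 3 arrays had exactly the same value, so any departure was flagged. *Tnnc2* in scrmb D was 19.02, above the next array at 18.68.

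Among the slow counterparts, *Myh7* was 13.75 in scrmb A, above the other scrmb arrays, which reached 11.89. MYTHO D was the low array for *Myh7* (11.58, the next 14.68), *Tnni1* (9.25, the next 12.99), *Tnnt1* (12.06, the next 14.26), *Tnnc1* (10.52, the next 13.56) and the mean of the 12 slow genes (11.61, the next 13.90). The targeted transcript *D230025D16Rik* was 8.80 in MYTHO C, above the other MYTHO arrays, which reached 8.20.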

How the results depend on the processing

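Over 21 alternatives, 158 of 166 values of the 8 measured fast genes other than *Tnnc2* kept their sign and their side of the adjusted threshold, 7 changed sign and 1 (*Tnnt3* without MYTHO B) was 0. Filters, animal blocks and the trended, robust variance leave the log2 fold change itself unchanged. In those settings only the side of the adjusted threshold could change. *Tnnc2*, at 0 with all arrays, ran from -0.133 to 0.0892. Median centring of the arrays, which moved the median of all probe sets to 0.035, gave 0.015 for *Tnni2*, 0.02 for *Tnnt3* and 0.025 for *Pvalb*, and quantile normalization gave -0.0069 for *Mylpf*. *Mybpc2* ranged from -0.24 to 0.053 when 1 array was left out, with 0.0275 without scrmb D and 0.053 without MYTHO C, and *Pvalb* from -0.0225 to 0.0075, the latter without MYTHO C. The median of the 9 measured genes was -0.077 under quantile normalization, 0.025 under median centring, and -0.027 to 0.053 with 1 array left out (0.0275 without scrmb D, 0.053 without MYTHO C).

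No fast gene had an adjusted p under 0.05 in any of these settings. The count over all probe sets, 6 in the main fit, moved with the setting. It was 1 without scrmb A, 60 without probe sets saturated on all arrays and 160 with a trended, robust variance. The number with an unadjusted p under 0.05 ranged from 0 to 2 with 1 array left out: 0 without scrmb C or MYTHO B, and 2 without scrmb A or MYTHO D, where *Myh2* joined *Myh1*. It was also 2 without both arrays of animal D and 2 without scrmb A and MYTHO D, settings added after the data were seen, like the removal of probe sets with any saturated array. The share of all probe sets higher at that threshold was 3.68% without scrmb C, 3.45% without MYTHO B, 4.53% without scrmb A and 4.91% without MYTHO D. That share was 5.41% without both arrays of animal D and 4.68% without scrmb A and MYTHO D. The log2 fold change of *Myh1* stayed between 0.54 and 1.02 and its adjusted p between 0.149 and 0.542. With animal as a replicate block, *Myh1* had a limma p of 0.0279 (adjusted 0.330) and *Myh2* one of 0.132, and the pairing changed no call of a fast gene. The block also brought 1 macrophage marker under an unadjusted p of 0.05.

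For the slow genes the number with an unadjusted p under 0.05 was 1 with a trended, robust variance and 0 to 12 with 1 array left out (4 in the absence of scrmb C, 3 of scrmb D, 2 of scrmb B or MYTHO B, 1 of MYTHO A and 0 of MYTHO C), and 8 had an adjusted p under 0.05 without scrmb A and MYTHO D. For the other fast genes the number was 0 under median centring, 0 without animal D and 0 to 1 with 1 array left out (0 without scrmb B, scrmb D, MYTHO B or MYTHO C). Of the marker lists, the count of 1 fell to 0 for blood without any 1 of scrmb A, scrmb B, scrmb C, MYTHO B or MYTHO D, for endothelium without scrmb C, scrmb D, MYTHO B, MYTHO C or MYTHO D (it was 2 under either other normalization, a trended variance or a random animal effect, and without MYTHO A), and for satellite cells without scrmb A, MYTHO A or MYTHO B, while that for fibroblasts was 1 in all settings. The cause of these differences was not tested. The signal ceiling limits what the near-saturated genes can show, and *Myh4* could not be measured in any setting.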
